A study of Rattus norvegicus with 12 samples.

Results

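Endothelial marker genes were followed in cultures of neonatal rat ventricular myocytes (NRVMs), the heart muscle cells of newborn rats. The members were the 10 genes Pecam1, Cdh5, Kdr, Flt1, Tek, Tie1, Vwf, Eng, Emcn and Esam, found by gene symbol among the 18483 genes of the expression tables. Of the 10 members, 9 were among the 13967 genes that passed the filter on low counts, and Emcn did not pass. The cells came from Sprague-Dawley neonates and had been separated from other heart cells on Percoll density layers, so any endothelial cells in the dishes had escaped that step. There were 4 groups of 3 samples each, described as independent biological replicates. siNeg cells carried a control siRNA and were untreated, and siNeg PE cells carried the same siRNA and received phenylephrine (PE), an α1-adrenergic agonist that makes cardiomyocytes grow, for 36 h according to the labels, where the culture methods of the study give a longer exposure. siSlc39a2 cells carried 1 siRNA sequence directed at Slc39a2, a zinc importer of the cell membrane, and were untreated, and siSlc39a2 PE cells carried that siRNA and received PE in the same way. All 4 groups were therefore transfected, kept in serum-free medium with insulin, transferrin and selenium, and sampled with no untransfected control. Where values of the 4 groups follow each other, siNeg is given first, then siNeg PE (with PE), siSlc39a2 (with the knockdown) and siSlc39a2 PE (with both). Differences are given as edgeR log2 fold changes, and a gene was called higher or lower at an adjusted p below 0.05, the Benjamini-Hochberg adjustment running over all 13967 genes tested.

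Endothelial cells line every blood vessel and the inner surface of the heart. They are held together by junctional adhesion proteins, grow in response to vascular endothelial growth factors (VEGFs) through receptor tyrosine kinases, and are kept quiescent by angiopoietins acting on the Tie receptors. Most of the members are close to exclusive to endothelium in the adult heart, but Eng is also made by fibroblasts and other mesenchymal cells, and Pecam1 also by platelets and leukocytes.

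Promoter sequences were printed for 3 members to show the letters upstream of the most abundant member (Eng) and of the receptor pair that shares VEGF-A as a ligand but differed in its response (Flt1 and Kdr). Each is the 250 bases before the RefSeq start of the gene in build GRCr8, read 5′ to 3′ on the strand of the gene. Eng lies at chr3:36332029-36332278 (+), Flt1 at chr12:12333180-12333429 (+) and Kdr at chr14:32571813-32572062 (+). Capitals mark the matches, on either strand, to the ETS core AGGAAG and the GC box GGGCGG.
Eng: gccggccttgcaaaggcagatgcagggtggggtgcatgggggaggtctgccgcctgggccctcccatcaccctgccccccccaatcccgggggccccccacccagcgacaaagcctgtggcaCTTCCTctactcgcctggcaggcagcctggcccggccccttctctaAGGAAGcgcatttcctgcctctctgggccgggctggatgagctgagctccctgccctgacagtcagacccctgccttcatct
Flt1: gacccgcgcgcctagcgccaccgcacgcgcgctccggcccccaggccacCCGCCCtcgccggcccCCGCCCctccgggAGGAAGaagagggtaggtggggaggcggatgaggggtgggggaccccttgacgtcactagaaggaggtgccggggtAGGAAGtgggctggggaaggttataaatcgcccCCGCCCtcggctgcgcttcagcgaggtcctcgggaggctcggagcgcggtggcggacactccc
Kdr: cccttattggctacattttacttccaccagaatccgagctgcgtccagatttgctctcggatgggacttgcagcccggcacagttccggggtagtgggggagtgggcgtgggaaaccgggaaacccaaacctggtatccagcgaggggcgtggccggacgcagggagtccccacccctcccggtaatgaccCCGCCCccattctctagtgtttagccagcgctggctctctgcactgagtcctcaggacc
The RefSeq table held promoters for 5 of the 10 members (Emcn, Eng, Tie1, Flt1 and Kdr). AGGAAG was found in 4 of these 5, all but Kdr, and in 29.5% of all 33469 promoters of the table. GGGCGG was found in Flt1, Kdr and Tie1 and in 30.5% of all promoters. The KLF motif CCACACCC was found in Tie1 and in 2.84% of all promoters. The longer ETS motif CCGGAAGT (3.1% of all promoters), the GATA motif AGATAA (10.3%) and the interferon response core GAAANNGAA (8.12%) had no match in these 5 windows. All motifs were searched on both strands, and AGGAAG does not lie within CCGGAAGT.

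Facts of the whole series bear on the depth behind each value. Total expected counts were between 24065539 and 28603854 per sample, so that 3 counts, taken as the floor of detection, corresponded to between 0.102 and 0.118 CPM (counts scaled to the normalized library size, as in the plots). Such floors cover counting error only. Slc39a2, the target of the siRNA, was at 1.97, 1.89 and 2.32 CPM in siNeg and at 0.726, 0.373 and 0.078 CPM in siSlc39a2. With PE it was at 3.50, 6.96 and 6.68 CPM in siNeg PE and at 1.16, 0.862 and 1.38 CPM in siSlc39a2 PE. The target was lower with its siRNA in both comparisons (log2 fold change -2.35 without PE and -2.33 with PE, edgeR adjusted p = 9.8e-04 and 2.24e-04), with no overlap between samples.

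The label of the genes was set against their levels first. Levels between genes are compared in FPKM, which are scaled to transcript length. Eng, the co-receptor endoglin of the TGF-β and BMP9 pathway, had a mean of 52.2 FPKM over the 12 samples. No other member reached a mean of 2 FPKM over these samples. Tek had a mean of 1.9 FPKM, Kdr 0.971, Flt1 0.788 and Esam 0.751. The means of the remaining 5 members were 0.247 FPKM for Pecam1, 0.169 for Tie1, 0.0942 for Cdh5, 0.0625 for Vwf and 0.0425 for Emcn. Pecam1, Cdh5 and Vwf, with which endothelial cells are usually identified, thus lay between the 20.8th and the 28.5th percentile of all genes of the table, where Eng lay at the 89.8th.

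In counts, Cdh5 had between 2 and 17 per sample, Pecam1 between 6 and 20, Vwf between 6 and 23 and Tie1 between 6 and 38. Emcn, a sialomucin of capillary and venous endothelium, had between 0 and 5 counts per sample, 19 in all 12 samples together, and was over 3 counts in 2 of them. The expected count of Eng was whole in 0 of 12 samples and that of Tek in 4 of 12. Reads partly shared with other genes would give such fractions, so the levels of Eng and Tek are uncertain. The other 8 members had whole counts in every sample.

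Other genes of endothelium also differed widely in level, from the floor of detection to abundant. Of the 82 genes in the table from 7 further endothelial lists (junctions, haemostasis, activation, transcription factors, pan-endothelial, endocardial and lymphatic), 10 had at most 3 counts in every sample. They included Cldn5 (claudin of endothelial tight junctions), Erg (an ETS factor that defines endothelial identity), Robo4, Mmrn1, Adgrl4 and Lyve1 (a lymphatic marker). A further 19 genes had a mean over 10 FPKM, and these include Ctnnb1 (120 FPKM) and Cd36 (115 FPKM), which are not particular to endothelium. Summed over their 10 members, the cardiomyocyte list (Myh6, Tnnt2, Actc1 and others) reached between 21400 and 34800 FPKM per sample, the fibroblast list between 749 and 3470, and the smooth muscle and pericyte list between 751 and 1770. The macrophage list reached between 29.3 and 100 FPKM. The 10 endothelial members reached between 39.0 and 81.9 FPKM, and between 4.21 and 5.99 FPKM without Eng. Eng made up between 86.9% and 94.2% of the endothelial sum in each sample, so the summed list is close to a measurement of Eng.

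**Figure D1:**
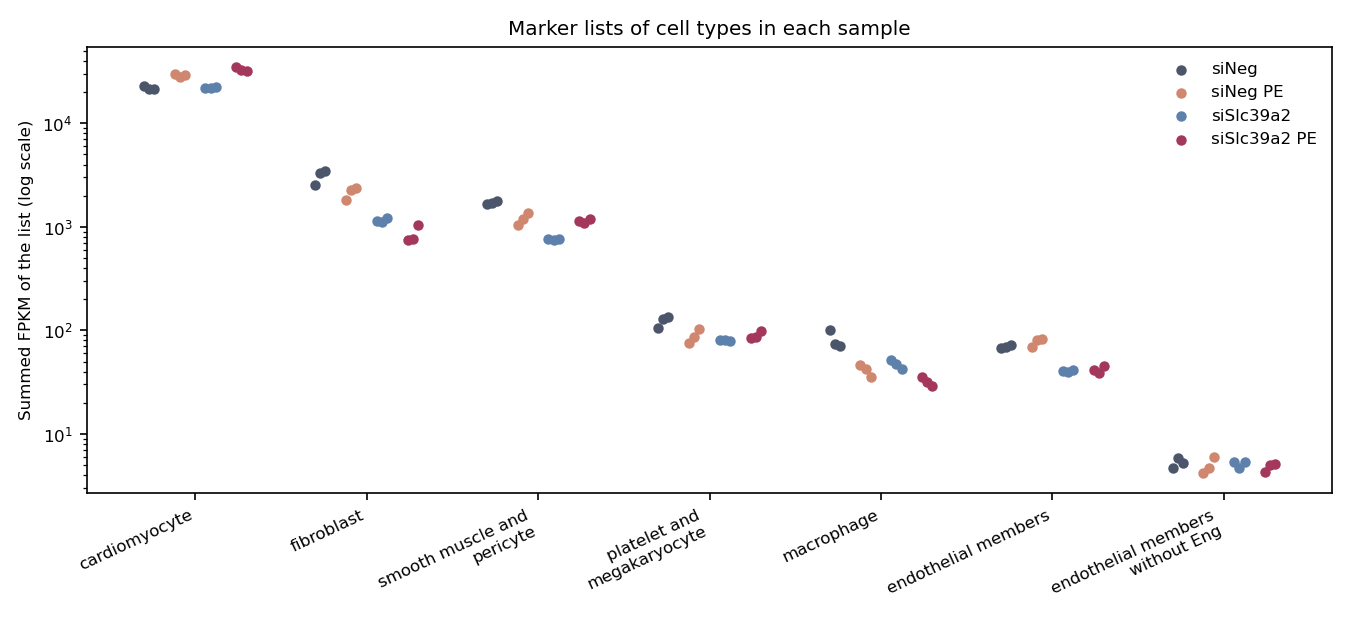
Summed FPKM of marker lists in each of the 12 samples (log scale), with 1 point per sample and the colour giving the group. The endothelial members lie between 39.0 and 81.9 FPKM and between 4.21 and 5.99 FPKM without Eng, below the cardiomyocyte list (21400 to 34800 FPKM) and the fibroblast list (749 to 3470 FPKM).

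The order of the members by FPKM was similar in the 4 groups, with changes in the middle. In siNeg it ran Eng (64.5 FPKM), Tek (1.43), Flt1 (1.11), Esam (0.943), Kdr (0.94), Pecam1 (0.313), Tie1 (0.273), Cdh5 (0.0867), Vwf (0.07) and Emcn (0.0667). Neighbours whose samples overlapped in siNeg were Flt1 and Esam, Esam and Kdr, Pecam1 and Tie1, Cdh5 and Vwf, and Vwf and Emcn. Flt1 lay above Esam and Kdr in siNeg, below both in siNeg PE (0.53 FPKM) and, with an overlap with Esam, in siSlc39a2 (0.73), and between them in siSlc39a2 PE (0.78). Eng and Tek kept the first and the second place in every group, each with no overlap with the member below it.

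The sum without Eng, most of it Tek, Kdr, Flt1 and Esam, overlapped between the groups. It was 5.24 ± 0.57 FPKM (SD, n = 3) in siNeg, 4.95 ± 0.927 with PE, 5.10 ± 0.413 with the knockdown and 4.81 ± 0.473 with both. The sum of the 5 lowest members (Pecam1, Cdh5, Tie1, Vwf and Emcn) was 0.81 ± 0.147 FPKM (SD, n = 3) in siNeg, 0.537 ± 0.165 with PE, 0.667 ± 0.188 with the knockdown and 0.45 ± 0.0954 with both. The siNeg samples of this sum, between 0.68 and 0.97 FPKM, lay above the siSlc39a2 PE samples, between 0.36 and 0.55, without overlap, and the other groups overlapped with siNeg. All FPKM are as deposited and carry no TMM factor, unlike CPM and the log2 fold changes. These factors lay between 0.9267 and 0.9605 in siNeg and between 1.039 and 1.066 in siSlc39a2. FPKM therefore tend to set siSlc39a2 higher against siNeg than CPM do. The mean over the 9 tested members of log2 CPM centred on each gene's mean, in which every member weighs the same, was 0.226, 0.435 and 0.268 in siNeg, above all 9 other samples. It was -0.173, 0.011 and 0.205 with PE, 0.065, -0.112 and -0.157 with the knockdown and -0.292, -0.427 and -0.05 with both. These RNAs were measured in whole dishes, in which fewer cells of a type and less RNA per cell cannot be told apart.

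**Figure D2:**
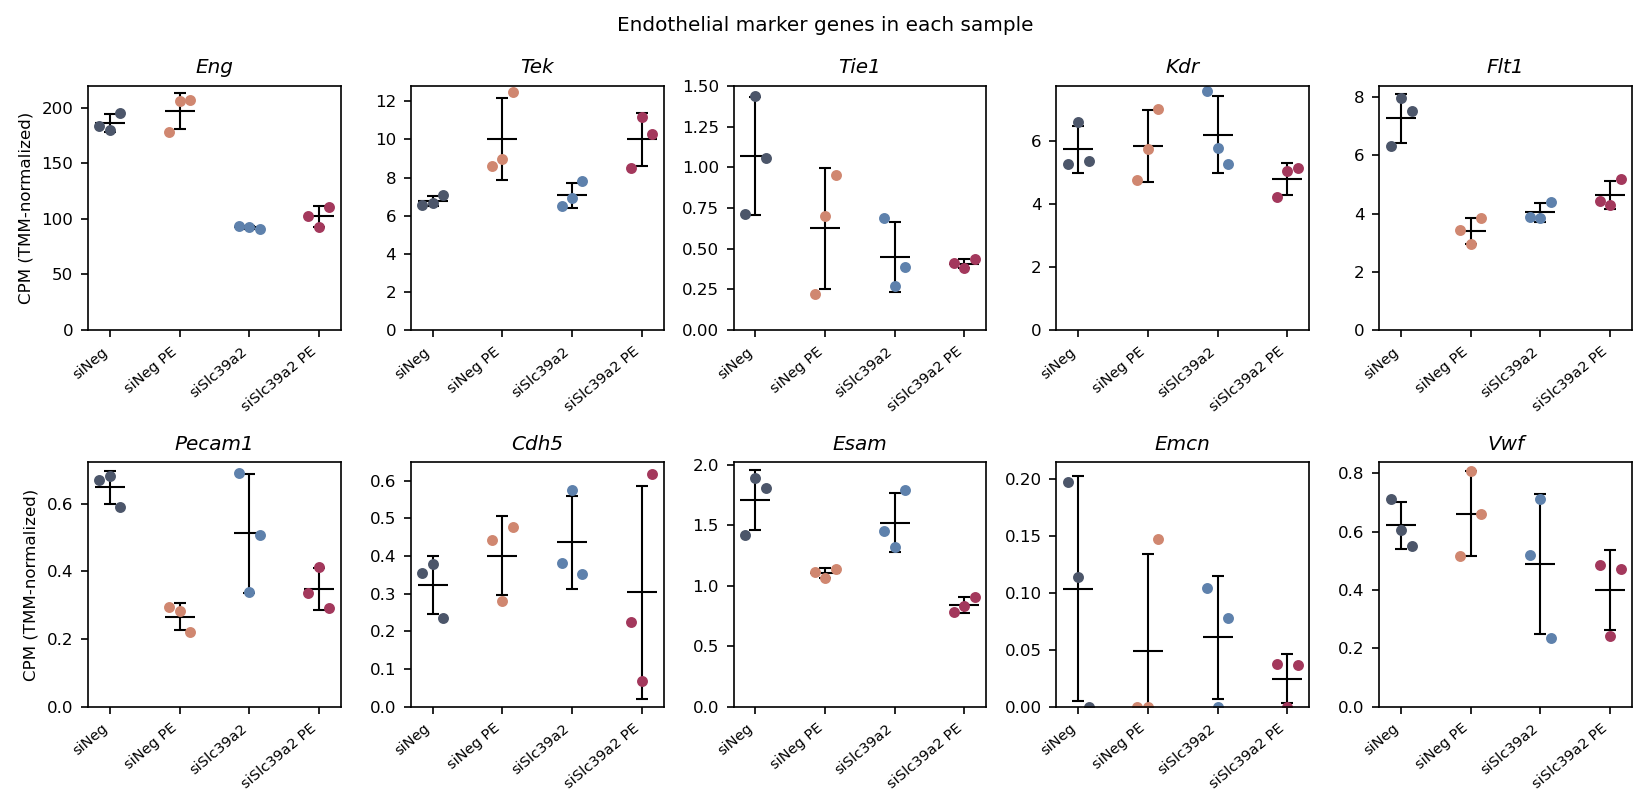
CPM (TMM-normalized) of the 10 members in each sample by group, with the group mean (long bar) and SD (n = 3), each panel on its own axis from 0. Eng lies between 178 and 207 CPM in the 6 siNeg and siNeg PE samples and between 91.0 and 111 CPM in the 6 siSlc39a2 and siSlc39a2 PE samples, and the 3 siNeg samples of Flt1 (6.32 to 7.96 CPM) lie above all 9 others.

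The members did not move as a block in any comparison. In siNeg PE against siNeg, 1 of the 9 tested members was higher (Tek) and 3 were lower (Flt1, Pecam1 and Esam), where 24% of all genes tested were higher and 25.7% lower. Of the 9, 2 (Flt1 and Pecam1) also passed an absolute log2 fold change of 1, against 6.6% of all genes. In siSlc39a2 against siNeg, 0 were higher and 3 were lower (Eng, Flt1 and Tie1), where 22.8% of all genes were higher and 26.4% lower. Of these, 2 (Eng and Tie1) passed both thresholds, against 9.78% of all genes. The 3 lower members were also the only ones of the 9 with an unadjusted p below 0.05 in edgeR, and DESeq2 and limma called 0 higher as well.

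In siSlc39a2 PE against siNeg PE, 1 member was higher (Flt1, against 29.2% of all genes) and 1 lower (Eng, against 28.1%), and 0 of the 9 passed both thresholds (11.6% of all genes). In siSlc39a2 PE against siSlc39a2, 1 was higher (Tek, against 30.7% of all genes) and 1 lower (Esam, against 29.3%), and 0 passed both thresholds (10.5% of all genes). The knockdown effect with PE differed from that without PE for 1 of the 9 (Flt1), against 3.61% of all genes. The median log2 fold change of the 9 was 0.023 in siNeg PE against siNeg, -0.331 in siSlc39a2 against siNeg, -0.386 in siSlc39a2 PE against siNeg PE and -0.311 in siSlc39a2 PE against siSlc39a2. Over all genes tested these medians were -0.014, -0.0163, 0.0104 and 0.0058. The counts over 9 members were not tested against the background, and these comparisons share their control samples.

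**Figure D3:**
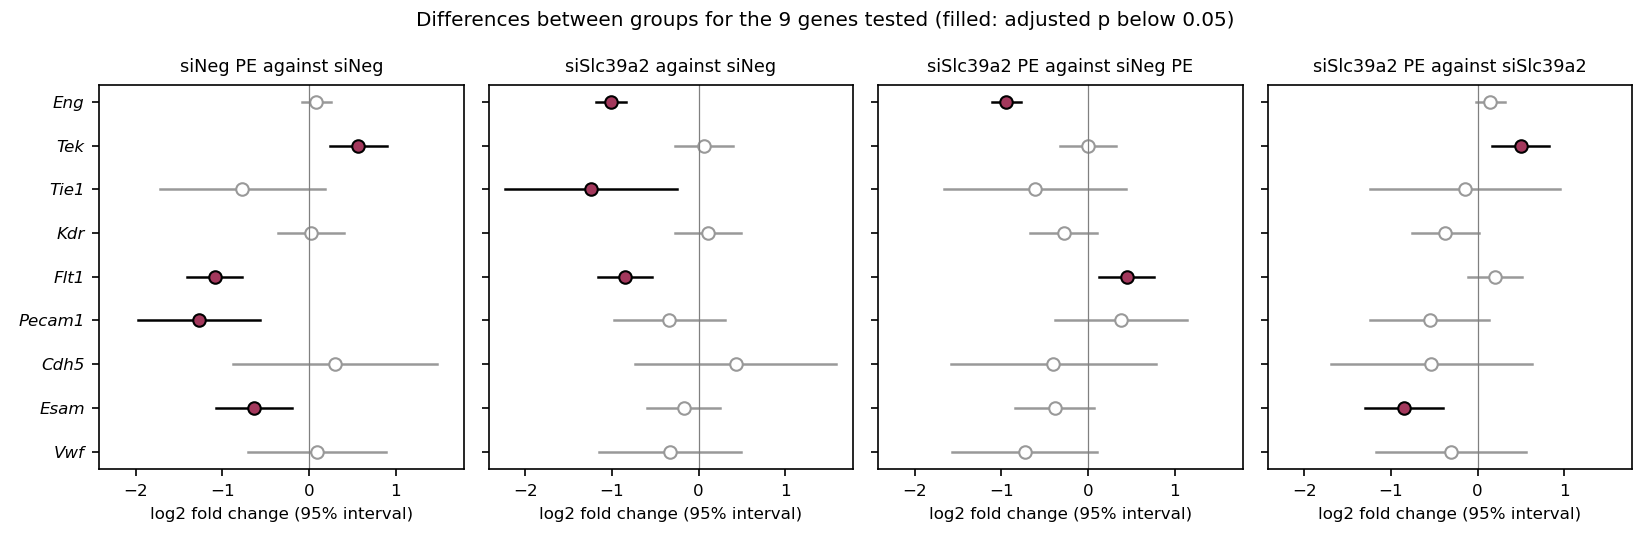
Log2 fold changes of the 9 tested members (x axis) with 95% intervals in the 4 comparisons (panels), filled where the edgeR adjusted p was below 0.05. Eng is lower in both knockdown comparisons (-1.01 and -0.94), Tek is higher in both PE comparisons (0.57 and 0.50), and Flt1 lies at -0.85 for the knockdown without PE and at 0.44 with PE.

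Among the receptors of VEGF, Flt1 (VEGFR1, which binds VEGF-A tightly and acts in part as a decoy) was called in 3 of the 4 comparisons. It was at 6.32, 7.96 and 7.53 CPM in siNeg, at 3.43, 2.95 and 3.85 with PE, at 3.87, 3.83 and 4.41 with the knockdown and at 4.44, 4.28 and 5.2 with both. The siNeg samples were above all others, and the siNeg PE samples were the lowest, with an overlap with siSlc39a2. PE lowered Flt1 in siNeg cells to 0.469 of its level (log2 fold change -1.09, 95% interval -1.41 to -0.78, edgeR adjusted p = 9.03e-05). The knockdown lowered it to 0.555 without PE (log2 fold change -0.85, 95% interval -1.16 to -0.54, edgeR adjusted p = 3.455e-04).

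With PE, Flt1 was higher in the knockdown cells, 1.36-fold (log2 fold change 0.44, 95% interval 0.12 to 0.76, edgeR adjusted p = 0.0205), with no overlap between siSlc39a2 PE and siNeg PE. The call was lost without siNeg PE replicate 2 (adjusted p = 0.0924) and without siSlc39a2 PE replicate 3 (adjusted p = 0.0851). The difference between the knockdown effects, with PE less without, was 1.29 on the log2 scale (standard error 0.21, 95% interval 0.85 to 1.74, edgeR adjusted p = 0.00385). PE in the knockdown cells changed Flt1 by 0.20 (95% interval -0.11 to 0.52, edgeR adjusted p = 0.246). The smooth muscle and pericyte markers were lower in some of the same comparisons. Their sum lay between 1660 and 1770 FPKM in siNeg, 1040 and 1350 in siNeg PE, 751 and 764 in siSlc39a2, and 1100 and 1200 in siSlc39a2 PE, with none of the 10 markers at 0 in all samples. Of the 10, 9 were lower and 0 higher in siSlc39a2 against siNeg (26.4% and 22.8% of all genes tested). In siNeg PE against siNeg 5 were lower and 1 higher (Cnn1, log2 fold change 2.57), against 25.7% and 24% of all genes. In siSlc39a2 PE against siNeg PE, where Flt1 was higher, the sums overlapped. There 3 markers were lower (among them Notch3 at -1.18 and Pdgfrb at -0.73) and 2 higher, against 28.1% and 29.2% of all genes. In siSlc39a2 PE against siSlc39a2, where Flt1 did not pass the test, 5 were higher and 4 lower (30.7% and 29.3% of all genes). Their part in the values of Flt1 was not tested.

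Kdr (VEGFR2, the main signalling receptor of VEGF-A) did not pass the test in any comparison. It was at 5.25, 6.59 and 5.36 CPM in siNeg, at 4.75, 5.73 and 7.01 with PE, at 7.57, 5.76 and 5.26 with the knockdown and at 4.21, 5.04 and 5.13 with both. The siSlc39a2 PE samples lay below those of siSlc39a2 and siNeg, and the other groups overlapped. The PE effect in siNeg cells was 0.02 (95% interval -0.36 to 0.41), and in knockdown cells it was -0.37 (95% interval -0.76 to 0.01, edgeR adjusted p = 0.0869). Without siSlc39a2 replicate 3 the latter was -0.50 and was called (adjusted p = 0.0372).

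The rest of the VEGF axis was expressed at higher mean levels than Flt1 and Kdr in every group. Of its 8 genes in the table all 8 were tested. In siNeg PE against siNeg 4 were higher and 4 lower (24% and 25.7% of all genes tested). The ligand gene Vegfa was at 19.0 ± 0.806 FPKM (SD, n = 3) in siNeg, 25.6 ± 0.608 with PE, 32.8 ± 2.28 with the knockdown and 37.6 ± 4.19 with both. It was higher with the knockdown (log2 fold change 0.68 without PE and 0.57 with PE) and with PE (0.37 in siNeg and 0.26 in siSlc39a2 cells), each with an edgeR adjusted p of at most 0.0113. Pgf, which encodes placental growth factor, a ligand of Flt1 and not of Kdr, fell from 4.01 ± 0.193 FPKM (SD, n = 3) in siNeg to 1.72 ± 0.396 in siNeg PE (log2 fold change -1.30, edgeR adjusted p = 7.216e-05). Vegfb, which also binds Flt1, was the most abundant ligand. It was at 160 ± 4.14 FPKM (SD, n = 3) in siNeg and 105 ± 5.77 in siNeg PE. Its reads may be partly shared with other genes.

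Vegfc, a ligand of Flt4, had an interaction in the same direction as Flt1. It was at 8.51 ± 1.13 FPKM (SD, n = 3) in siNeg, 3.71 ± 0.0379 with PE, 8.58 ± 1.09 with the knockdown and 6.1 ± 0.361 with both (interaction 0.84 on the log2 scale, edgeR adjusted p = 0.01027). Flt4 (VEGFR3, the receptor of lymphatic endothelium) was higher with PE in both backgrounds, from 1.89 ± 0.29 to 11.5 ± 2.68 FPKM (SD, n = 3) in siNeg cells and from 2.33 ± 0.438 to 10.4 ± 0.473 in knockdown cells. The log2 fold changes were 2.53 (edgeR adjusted p = 4.158e-07) and 2.21 (edgeR adjusted p = 5.377e-07). On the lymphatic list 4 of 6 genes were tested, 3 of them higher in siNeg PE against siNeg (24% of all genes tested). Lyve1 and Ccl21 had at most 2 counts in every sample. The co-receptor Nrp1 was higher in all 4 comparisons, by log2 fold changes between 0.43 and 0.49.

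**Figure D4:**
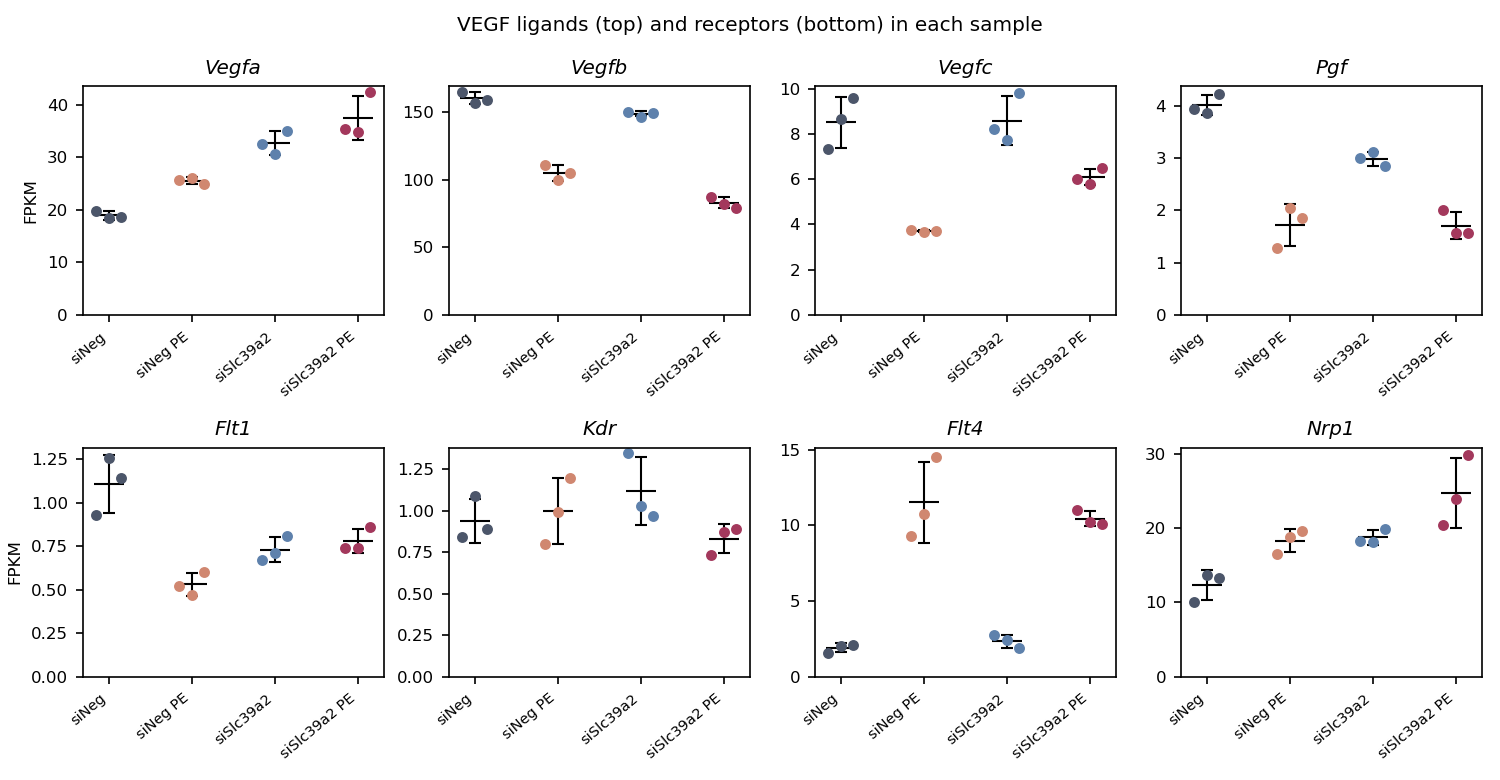
FPKM of the VEGF ligand genes Vegfa, Vegfb, Vegfc and Pgf (top) and the receptor genes Flt1, Kdr, Flt4 and Nrp1 (bottom) in each sample by group, with the mean and SD (n = 3), each panel on its own axis from 0. Flt4 rises from 1.89 to 11.5 FPKM with PE in siNeg cells and from 2.33 to 10.4 FPKM in knockdown cells, where Kdr stays between 0.73 and 1.35 FPKM in all 12 samples.

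Of the Tie receptors, Tek (Tie2, the receptor of the angiopoietins) was higher with PE in both backgrounds. It was at 6.56, 6.67 and 7.09 CPM in siNeg and at 8.62, 8.97 and 12.5 in siNeg PE. In knockdown cells it was at 6.53, 6.91 and 7.80 CPM without PE and at 8.5, 11.2 and 10.3 with PE. All 6 PE samples lay above all 6 samples without PE. The rise was 1.48-fold in siNeg cells (log2 fold change 0.57, 95% interval 0.24 to 0.90, edgeR adjusted p = 0.00866) and 1.41-fold in knockdown cells (0.50, 95% interval 0.17 to 0.83, edgeR adjusted p = 0.0124).

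The latter call for Tek was lost without siSlc39a2 PE replicate 2 (adjusted p = 0.0583) and without siSlc39a2 replicate 1 (adjusted p = 0.0518). The knockdown changed Tek by 0.06 without PE (95% interval -0.27 to 0.40) and by -0.01 with PE (95% interval -0.33 to 0.32), and the difference of these effects was -0.07 (edgeR adjusted p = 0.928).

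Tie1, the orphan partner of Tek, was at 0.711, 1.44 and 1.06 CPM in siNeg, at 0.221, 0.703 and 0.954 with PE, at 0.691, 0.271 and 0.390 with the knockdown and at 0.410, 0.379 and 0.436 with both. The siNeg samples lay above those of both knockdown groups and overlapped with siNeg PE. In siSlc39a2 against siNeg the log2 fold change was -1.24 (95% interval -2.23 to -0.25, edgeR adjusted p = 0.0383). This call rests on counts between 8 and 38 and was lost without siNeg replicate 2 (adjusted p = 0.147), siNeg replicate 3 (0.0734), siSlc39a2 replicate 2 (0.134) or siSlc39a2 replicate 3 (0.122). With PE the knockdown effect was -0.61 (95% interval -1.67 to 0.44).

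Of the 4 other genes of the angiopoietin-Tie axis, 2 were tested. Angpt1, the agonist of Tek, was higher with the knockdown (log2 fold change 0.84 without PE and 1.11 with PE, edgeR adjusted p = 0.0064 and 0.001), at 0.53 ± 0.181 FPKM (SD, n = 3) in siNeg and 0.797 ± 0.0971 in siSlc39a2. Angpt2, its context-dependent antagonist, was lower in siSlc39a2 PE than in siNeg PE (log2 fold change -1.23, edgeR adjusted p = 0.0155) and than in siSlc39a2 (-1.18, edgeR adjusted p = 0.0184). It had 0.217 ± 0.121 FPKM (SD, n = 3) in siSlc39a2 PE, with between 5 and 18 counts per sample. It had 0.507 ± 0.142 FPKM (SD, n = 3) in siNeg PE, 0.51 ± 0.0755 in siSlc39a2 and 0.82 ± 0.225 in siNeg.

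Of the junctional members, Pecam1 (CD31) was lower in siNeg PE, with 17, 18 and 15 counts in siNeg and 8, 8 and 6 in siNeg PE. In CPM this was 0.671, 0.682 and 0.591 against 0.295, 0.281 and 0.220, with no overlap. The log2 fold change was -1.27 (95% interval -1.98 to -0.57, edgeR adjusted p = 0.00665). In knockdown cells it was at 0.691, 0.339 and 0.507 CPM without PE and at 0.336, 0.414 and 0.291 with PE, which overlapped (log2 fold change -0.55, 95% interval -1.24 to 0.14, edgeR adjusted p = 0.15). Whether the PE effect on Pecam1 differed between the backgrounds was not detectable at these counts (difference 0.72, 95% interval -0.27 to 1.71).

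Some macrophage markers were lower where Pecam1 was, and also where it was not called. Of 9 tested macrophage markers, 5 were lower in siNeg PE against siNeg (25.7% of all genes tested) and 4 in siSlc39a2 against siNeg (26.4%). In siSlc39a2 PE against siNeg PE 2 were lower (28.1% of all genes), and 4 in siSlc39a2 PE against siSlc39a2 (29.3%). In each comparison 0 were higher. Csf1r, for example, was lower in siSlc39a2 against siNeg (log2 fold change -0.92) and in siSlc39a2 PE against siNeg PE (-0.79), where Pecam1 was at -0.34 and 0.38 and did not pass the test. The summed level of the macrophage list lay between 70.8 and 100 FPKM in siNeg, 35.5 and 46.3 in siNeg PE, 42.3 and 52.1 in siSlc39a2, and 29.3 and 35.3 in siSlc39a2 PE. None of the 10 markers was at 0 in all samples, and Lyz2 had the highest level. Their part in the values of Pecam1 was not tested.

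Esam, an immunoglobulin-like adhesion molecule of endothelial tight junctions and platelets, was lower with PE in both backgrounds. It was at 1.42, 1.89 and 1.81 CPM in siNeg and at 1.11, 1.06 and 1.14 in siNeg PE. In knockdown cells it was at 1.45, 1.32 and 1.79 CPM without PE and at 0.783, 0.828 and 0.909 with PE. The samples with PE lay below all samples without it. The log2 fold change was -0.64 in siNeg cells (95% interval -1.07 to -0.20, edgeR adjusted p = 0.0193) and -0.85 in knockdown cells (95% interval -1.30 to -0.40, edgeR adjusted p = 0.00343).

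The former call for Esam was lost without siNeg replicate 2 (adjusted p = 0.0705), siNeg replicate 3 (0.0558) or siNeg PE replicate 2 (0.0633), and with DESeq2 (0.0529). The siSlc39a2 PE samples also lay below those of siNeg PE (log2 fold change -0.39, edgeR adjusted p = 0.137). The knockdown without PE changed Esam by -0.17 (95% interval -0.59 to 0.25).

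Platelets make Esam and Pecam1 too, and of 10 platelet markers 7 were in the table and 4 were tested. In siNeg PE against siNeg 2 were lower, Thbs1 (log2 fold change -0.61) and Itgb3 (-0.24), against 25.7% of all genes tested. In siSlc39a2 PE against siSlc39a2 Itga2b was lower (-1.10, edgeR adjusted p = 0.00241) and Thbs1 higher (0.30, edgeR adjusted p = 0.0452). Of all genes, 29.3% were lower and 30.7% higher there. Thbs1 (-0.74) and Itgb3 (-0.77) were lower in siSlc39a2 against siNeg (26.4% of all genes). Itgb3 (-0.46) was also lower in siSlc39a2 PE against siNeg PE (28.1% of all genes). Neither Esam nor Pecam1 passed the test in these knockdown comparisons. The summed level of the list lay between 105 and 134 FPKM in siNeg, 75.7 and 102 in siNeg PE, 78.5 and 80.1 in siSlc39a2, and 85.2 and 99.0 in siSlc39a2 PE. Thbs1, which fibroblasts and other cells also make, had the highest level in each group, and 2 of the 7 markers had at most 3 counts in every sample. Their part in the values of Esam and Pecam1 was not tested.

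Cdh5 (VE-cadherin, the cadherin of endothelial adherens junctions) had 9, 10 and 6 counts in siNeg, 12, 8 and 13 with PE, 11, 17 and 9 with the knockdown and 6, 2 and 17 with both. The groups overlapped in every comparison. Intervals were wide, as for PE in siNeg cells (log2 fold change 0.30, 95% interval -0.88 to 1.48), so changes below about that size were not detectable at this depth. The siSlc39a2 PE group decided its values: without replicate 3 of that group Cdh5 was lower than in siNeg PE (-1.44, edgeR adjusted p = 0.0397) and in siSlc39a2 (-1.57, edgeR adjusted p = 0.0252). Without replicate 2 of that group the former was 0.08.

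Of the 10 listed junction partners, which include catenins and tight junction proteins, 9 were tested. In siNeg PE against siNeg 3 were higher and 2 lower (24% and 25.7% of all genes tested). In siSlc39a2 against siNeg 1 was higher and 2 were lower (22.8% and 26.4% of all genes). Jam2, a junctional adhesion molecule of endothelium, was the gene of largest change there, at 1.2 ± 0.16 FPKM (SD, n = 3) in siNeg and 0.603 ± 0.172 in siSlc39a2 (log2 fold change -1.16, edgeR adjusted p = 6.29e-04). F11r (JAM-A), which epithelia and platelets also make, was higher, with a log2 fold change of 0.71 (edgeR adjusted p = 1.573e-05).

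Eng was lower in both knockdown groups, with the smallest standard error (0.08) of any member. It was at 184, 180 and 195 CPM in siNeg and at 93.7, 92.8 and 91.0 in siSlc39a2. With PE it was at 178, 206 and 207 CPM in siNeg PE and at 103, 92.6 and 111 in siSlc39a2 PE. The 6 knockdown samples lay below the 6 samples with control siRNA without overlap. Without PE the level was 0.497 of that in siNeg (log2 fold change -1.01, 95% interval -1.18 to -0.84, edgeR adjusted p = 3.65e-07), and with PE it was 0.52 of that in siNeg PE (-0.94, 95% interval -1.11 to -0.77, edgeR adjusted p = 6.82e-07).

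PE changed Eng by 0.08 in siNeg cells (95% interval -0.09 to 0.25) and by 0.15 in knockdown cells (95% interval -0.02 to 0.32, edgeR adjusted p = 0.118). Without siSlc39a2 PE replicate 2 the latter was 0.22 and was called (adjusted p = 0.038). The knockdown effects with and without PE differed by 0.07 (95% interval -0.17 to 0.30, edgeR adjusted p = 0.836).

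Fibroblast markers moved in the same comparisons as Eng. Of the 10 fibroblast markers, all tested, 8 were lower and 1 higher in siSlc39a2 against siNeg (26.4% and 22.8% of all genes tested). The same counts held in siSlc39a2 PE against siNeg PE (28.1% and 29.2% of all genes). The median log2 fold changes were -1.27 and -1.16. Their summed level lay between 2550 and 3470 FPKM in siNeg, 1830 and 2380 in siNeg PE, 1120 and 1230 in siSlc39a2, and 749 and 1050 in siSlc39a2 PE, and none of the 10 was at 0 in all samples. In siNeg PE against siNeg 6 of the 10 were lower and 2 higher (25.7% and 24% of all genes), where Eng was at 1.06-fold (95% interval 0.942 to 1.19). Of the 10 smooth muscle and pericyte markers, 9 were lower and 0 higher in siSlc39a2 against siNeg. In siSlc39a2 PE against siNeg PE 3 of them were lower and 2 higher. The part of fibroblast or of smooth muscle and pericyte RNA in the values of Eng was not tested.

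Eng presents BMP9 and BMP10 to the receptor ALK1, encoded by Acvrl1, which acts through SMAD1, SMAD5 and SMAD9 on the Id genes. Of the 12 genes of this axis 10 were tested. Gdf2, the gene of BMP9, and Bmp10 were not tested, with at most 4 and 2 counts in any sample. Of those tested, 8 were higher in siSlc39a2 against siNeg (22.8% of all genes tested) and 7 in siSlc39a2 PE against siNeg PE (29.2%). The others tested did not pass the test. Id3 was at 15.2 ± 0.954 FPKM (SD, n = 3) in siNeg and 42.2 ± 6.1 in siSlc39a2 (log2 fold change 1.34, edgeR adjusted p = 1.707e-06). Id1 was at 7.4 ± 0.597 FPKM (SD, n = 3) in siNeg and between 17.5 and 23.5 in siSlc39a2 (log2 fold change 1.29, edgeR adjusted p = 7.254e-05), and PE raised it in both backgrounds (1.11 in siNeg and 1.00 in knockdown cells). Acvrl1 itself was at 3.05 ± 0.35 FPKM (SD, n = 3) in siNeg and 3.68 ± 0.559 in siSlc39a2 (log2 fold change 0.08, edgeR adjusted p = 0.625).

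Vwf, the haemostatic glycoprotein of Weibel-Palade bodies, had 18, 16 and 14 counts in siNeg, 14, 23 and 18 with PE, 15, 21 and 6 with the knockdown and 13, 7 and 13 with both. The siSlc39a2 PE samples lay below those of siNeg PE, but the difference did not pass the test (log2 fold change -0.73, 95% interval -1.57 to 0.11, edgeR adjusted p = 0.123). In the other comparisons the groups overlapped.

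Of the 9 other haemostasis genes 8 were tested. In siNeg PE against siNeg 4 were higher and 3 lower (24% and 25.7% of all genes tested). Thbd (thrombomodulin, a cofactor of protein C activation) had an interaction of -0.93 (edgeR adjusted p = 0.01098). Nos3, the endothelial nitric oxide synthase, had at most 19 counts in any sample. It was lower in siNeg PE against siNeg (log2 fold change -1.06, edgeR adjusted p = 0.0433).

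On the list of activated endothelium, Vcam1, Icam1 and Cx3cl1, which bring leukocytes to the vessel wall, were all higher with the knockdown, in both backgrounds. Of all genes tested, 22.8% were higher with the knockdown without PE and 29.2% with PE. Vcam1 rose from 1.47 ± 0.147 FPKM (SD, n = 3) in siNeg to 21.0 ± 2.46 in siSlc39a2 (log2 fold change 3.63, edgeR adjusted p = 8.845e-10). Its reads may be partly shared with other genes. Cx3cl1 rose from 17.6 ± 0.244 to 78.9 ± 13.7 FPKM (SD, n = 3; log2 fold change 2.03, edgeR adjusted p = 8.846e-09). The selectins Sele and Selp, which are more particular to endothelium, had at most 4 and 6 counts in any sample and were not tested. Of 13 endothelial transcription factors 9 were tested. In siSlc39a2 against siNeg 2 were higher and 2 lower (22.8% and 26.4% of all genes). Klf2, which is induced by blood flow, was lower with PE, at 25.7 ± 3.02 FPKM (SD, n = 3) in siNeg and 18.1 ± 1.24 in siNeg PE (log2 fold change -0.58, edgeR adjusted p = 1.805e-04). It was also lower with the knockdown (log2 fold change -0.31 without PE and -0.42 with PE, edgeR adjusted p = 0.00873 and 0.00121).

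Of 35 further pan-endothelial genes, 25 were tested, and in siSlc39a2 against siNeg 4 were higher and 7 lower, where 22.8% of all genes tested were higher and 26.4% lower. Clec14a, a C-type lectin of endothelium, was higher with the knockdown where most members were not, at 1.6 ± 0.185 FPKM (SD, n = 3) in siNeg, 1.44 ± 0.229 with PE, 3.17 ± 0.0872 with the knockdown and 4.4 ± 0.778 with both. The log2 fold changes were 0.84 without PE (edgeR adjusted p = 4.48e-04) and 1.60 with PE (edgeR adjusted p = 1.777e-06). S1pr1, the sphingosine-1-phosphate receptor that stabilizes vessels and is also made by cardiomyocytes, was at 13.5 ± 0.458 FPKM (SD, n = 3) in siNeg, between 21.4 and 27.8 with PE, at 15.3 ± 0.716 with the knockdown and at 47.8 ± 1.54 with both. On the endocardial list 4 of 5 genes were tested, and 2 were lower in siNeg PE against siNeg (25.7% of all genes). Nrg1, which encodes neuregulin, was lower with PE in siNeg cells (log2 fold change -1.28, edgeR adjusted p = 1.1e-04) and had an interaction of 1.04 on the log2 scale (edgeR adjusted p = 0.0345).

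Genes with the most similar pattern were sought among the 12491 genes whose mean log2 CPM exceeded 0. Likeness was the root-mean-square difference of centred log2 CPM over the 12 samples, where a smaller value is closer. To the mean of the 9 tested members the closest gene was Cd34 (0.0844), a sialomucin of endothelium, blood progenitors and fibroblasts, followed by Zmiz1 (0.11), Mrtfa (0.113), Ttc7a (0.114) and Abcg4 (0.116). Cd34 was at 40.9 ± 2.42 CPM (SD, n = 3) in siNeg, 33.9 ± 3.22 with PE, 32.1 ± 0.125 with the knockdown and 26.9 ± 4.21 with both.

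Among single members, Eng was closest to Gas7 (0.0633), at 43.1 ± 2.24 CPM (SD, n = 3) in siNeg and 22.4 ± 1.11 in siSlc39a2. Flt1 was closest to Cav1 (0.161), which encodes caveolin and was at 64.8 ± 10.9 CPM (SD, n = 3) in siNeg and between 33.9 and 40.1 CPM on average in the other groups. Tek was closest to Edem1 (0.105), Esam to Ndrg1 (0.127), Kdr to Fbxl21 (0.131), Pecam1 to P2ry6 (0.227), Vwf to Pcdhgb6 (0.254), Tie1 to Hmcn1 (0.326) and Cdh5 to Fgf11 (0.417). The members themselves were not among the genes searched. For Pecam1, Vwf, Tie1 and Cdh5, whose counts were low, even the closest gene was over 0.2 away.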

How the data were processed

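RNA of NRVMs (4 groups, 3 samples each) had been sequenced by the Beijing Genomics Institution. The authors deposited expected counts per gene, not normalized, and FPKM of the same 18483 genes. The submitters' processing notes name HISAT, Bowtie2 and build Rnor_6.0. The counting program and the strandedness of counting are not given in the sources used here. Of the expected counts 78.7% were within 0.005 of a whole number, and the others may share reads with further genes. Counts were rounded, filtered (filterByExpr, minimum 10; 4516 genes left out, 13967 kept), TMM-normalized and fitted with edgeR 4.0.16 (R 4.3.3) in 1 model of all samples (8 residual degrees of freedom), using quasi-likelihood F-tests with Benjamini-Hochberg adjustment. Fold changes are from this fit with standard errors derived from its F statistic; log2 CPM used a prior count of 2. Emcn was not tested.

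The study's threshold adds an absolute log2 fold change above 1. Alternatives were DESeq2 1.42.0, RLE factors, no filter, 2 groups alone, a replicate block, limma 3.58.1 after quantile normalization, and leaving out each sample. The fits were tested on simulated data. Replicate numbers come from the sample labels and were not taken to pair the samples. No pair of replicates agreed within sampling noise (the chi-square of their counts over its degrees of freedom ranged from 4.88 to 34.9), so each was used. A gene of few counts could pass the filter on low counts through its highest group alone, which would favour a difference there. Pecam1, Cdh5, Vwf and Tie1 each had a sample of at least 10 counts in siNeg, in siSlc39a2 and in siSlc39a2 PE.

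All 10 members were named. Of each other list, at most the 2 called genes of largest change in a comparison were named, with the closest genes by pattern. Acvrl1, Nrp1 and Icam1, and genes named for few counts or for a high level, were named after their values were seen. The members and lists were chosen with earlier results of these data known. The lists of epicardial and of B and T cell markers were measured too. In siSlc39a2 against siNeg 3 of 5 tested epicardial markers and 1 of 2 tested B and T cell markers were lower. The others did not pass the test, and 26.4% of all genes tested were lower there. 1 gene of the haemostasis list is not reported here.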

Additional observations from a re-analysis of the deposited data

Results flagged for a closer look

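The effect of the knockdown on Flt1 differed between cells with and without PE. The difference was 1.29 on the log2 scale (standard error 0.21, edgeR adjusted p = 0.00385, n = 3 per group), with a log2 fold change of 0.44 with PE and -0.85 without PE. Flt1 was higher in 3 of 3 siSlc39a2 PE samples than in any siNeg PE sample and lower in 3 of 3 siSlc39a2 samples than in any siNeg sample. Over all settings tried the difference was between 0.58 and 1.39, with an adjusted p between 1.65e-05 and 0.0153. It was picked out because a test of the difference itself passed the threshold, and of the 9 members tested for such a difference it was the only one.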

How the results depend on the processing

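Depth limits the 5 lowest members most, which had between 0 and 38 counts per sample. Replicate numbers pair samples in name alone: deviations of same-numbered samples correlated between -0.0904 and 0.32 across genes, those of other pairs between -0.249 and 0.236. The replicate block changed no count of members called, and turned 1 value, that of Tek in siSlc39a2 PE against siNeg PE (0.0032). With an absolute log2 fold change above 1 as well, the counts fell to 0 for members higher in siNeg PE against siNeg, and for members higher and for those lower in siSlc39a2 PE against siNeg PE and in siSlc39a2 PE against siSlc39a2. Under limma on the log2 of FPKM + 1, of FPKM + 0.1 and of count + 1, Esam joined Eng among the lower members in siSlc39a2 PE against siNeg PE (2 under each), and 2, 3 and 2 were lower in siSlc39a2 PE against siSlc39a2, with Kdr added in each and Pecam1 in the second.

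With 1 sample left out at a time, between 2 and 3 members were lower and 1 higher in siNeg PE against siNeg, and between 2 and 3 were lower in siSlc39a2 against siNeg. Between 0 and 1 were higher and between 1 and 2 lower in siSlc39a2 PE against siNeg PE, and the same ranges held in siSlc39a2 PE against siSlc39a2. The calls this rests on stand beside each gene in the report.

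Values not called in the fit reported changed sign as follows. Under the 3 limma settings, in the order above, Kdr in siNeg PE against siNeg was -0.078, -0.14 and -0.11, Tek in siSlc39a2 against siNeg was -0.012, -0.019 and -0.026, and the interaction of Eng was -0.040, -0.038 and -0.065. Tie1 in siSlc39a2 PE against siSlc39a2 was 0.0055 on log2(count + 1). On log2(FPKM + 0.1), Vwf in that comparison was 0.016 and its interaction 0.011. With 1 sample left out, Kdr was between -0.13 and 0.15 in siNeg PE against siNeg and between -0.056 and 0.27 in siSlc39a2 against siNeg. Vwf was between -0.080 and 0.24, between -0.70 and 0.032, and between -0.65 and 0.059 in siNeg PE against siNeg, siSlc39a2 against siNeg and siSlc39a2 PE against siSlc39a2. Cdh5 was between -1.44 and 0.080 and Tek between -0.10 and 0.18 in siSlc39a2 PE against siNeg PE, and Tie1 between -0.41 and 0.31 in siSlc39a2 PE against siSlc39a2. The interaction of Tek was between -0.17 and 0.12 and that of Eng between -0.0031 and 0.13. The cause was not tested.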
